A study of Mus musculus with 24 samples.

Results

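The genes described here are 9 chemokine ligand genes, Cxcl1, Cxcl2, Cxcl3, Ccl1, Ccl3, Ccl4, Ccl5, Ccl20 and Xcl1, and the receptor-like gene Ccrl2. They were taken as a list of names, with no level or fold change in the rule, but with earlier results of these data known. All 10 were found by gene ID among the 27179 genes of the count table. RNA was sequenced from 3 lymphocyte populations, sorted out of the lamina propria of the colon of Nmur1 iCre-eGFP mice, in which eGFP marks cells that use the Nmur1 gene. Every mouse, controls included, had received 3% dextran sulfate sodium (DSS), a polymer toxic to the epithelium of the colon, over 5 days, followed by 3 days of water. During that time mice 1 to 4 were injected intraperitoneally every other day with neuromedin U (NMU), a neuropeptide, and mice 5 to 8 with phosphate-buffered saline (PBS).

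The 6 groups, with 4 libraries each, were group 2 innate lymphoid cells (ILC2) of NMU-treated mice and ILC2 of PBS-treated mice, NMUR1+ CD4 T cells of NMU-treated mice and of PBS-treated mice, and NMUR1- CD4 T cells of NMU-treated mice and of PBS-treated mice. ILC2 were gated as CD45+ Lin- CD90.2+ CD127+ KLRG1+ eGFP+ cells, and CD4 T cells as CD45+ CD3+ CD5+ CD4+ cells with or without eGFP. The sample labels name 8 mice, 4 for each treatment, whereas the design text of the series counts 3 for each treatment. Because the same mice gave all 3 populations, a mouse carries the same number in each of them. No uninjured mice and no NMUR1- ILC2 are among the groups, and the labels give neither age nor sex.

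Chemokines are small secreted proteins that bind G protein-coupled receptors on leukocytes and direct their migration. The CXC ligands Cxcl1, Cxcl2 and Cxcl3 attract neutrophils through CXCR2, whereas the CC ligands and Xcl1 act mainly on monocytes, lymphocytes and dendritic cells. ILC2 are tissue-resident lymphocytes without an antigen receptor that make type 2 cytokines, and NMU, released by enteric neurons, activates them through its receptor NMUR1.

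Libraries held between 8485266 and 17854961 counts, with a median of 12468400, and 10778 to 15955 genes had at least 1 count. The summed level of 9 ILC2 markers was 10896 to 13749 CPM (counts per 1000000 counts of a library, its size scaled by TMM, the trimmed mean of M-values) in ILC2, 2531 to 4529 in NMUR1+ and 981 to 1675 in NMUR1- CD4 T cells. The 7 CD4 T cell markers summed to 308 to 693.4 CPM in ILC2, against 4371 to 6438 CPM in the CD4 T cells, so the sorted populations carried the markers of their labels. Nmur1 itself averaged 240 ± 69.4 and 229 ± 50.6 CPM in ILC2 of NMU-treated and PBS-treated mice, 41.3 ± 28.4 and 41.1 ± 23.7 CPM in NMUR1+ cells, and 4.62 ± 3.36 and 4.11 ± 1.94 CPM in NMUR1- cells (SD, n = 4). Immunoglobulin transcripts took 0.0241 to 0.867% of the counts in ILC2 of NMU-treated mice and 0.665 to 7.93% in ILC2 of PBS-treated mice, 0.784 to 30.4% in NMUR1+ cells and 0.146 to 5.58% in NMUR1- cells. The NMUR1+ libraries of mice 1, 4, 5 and 7 stood apart with the highest shares of these genes. The ILC2 libraries of mice 5 and 6 had the highest macrophage and fibroblast marker sums among ILC2. Comparisons between populations, and the NMU effect in ILC2 minus that in NMUR1+ cells, were also fitted without those NMUR1+ libraries. A fit without those ILC2 libraries was made only for NMU against PBS in ILC2.

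When levels were divided by transcript length, Ccl1 led in ILC2, whereas Ccl5 led in both CD4 T cell populations. In both of these, Ccrl2 and then Ccl4 followed Ccl5. In ILC2 the mean level was 308 CPM per kb for Ccl1, 226 for Ccrl2, 205 for Cxcl2 and 135 for Cxcl1. In NMUR1+ CD4 T cells it was 258 CPM per kb for Ccl5, 162 for Ccrl2, 134 for Ccl4 and 53.9 for Cxcl2. In NMUR1- CD4 T cells Ccl5 led with 551 CPM per kb, followed by Ccrl2 with 48.9 and Ccl4 with 40.4. The order within a population was read from means over 8 libraries and was not tested. Because these are bulk libraries, a smaller share of expressing cells and less RNA in each cell cannot be told apart in any of these values.

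**Figure D1:**
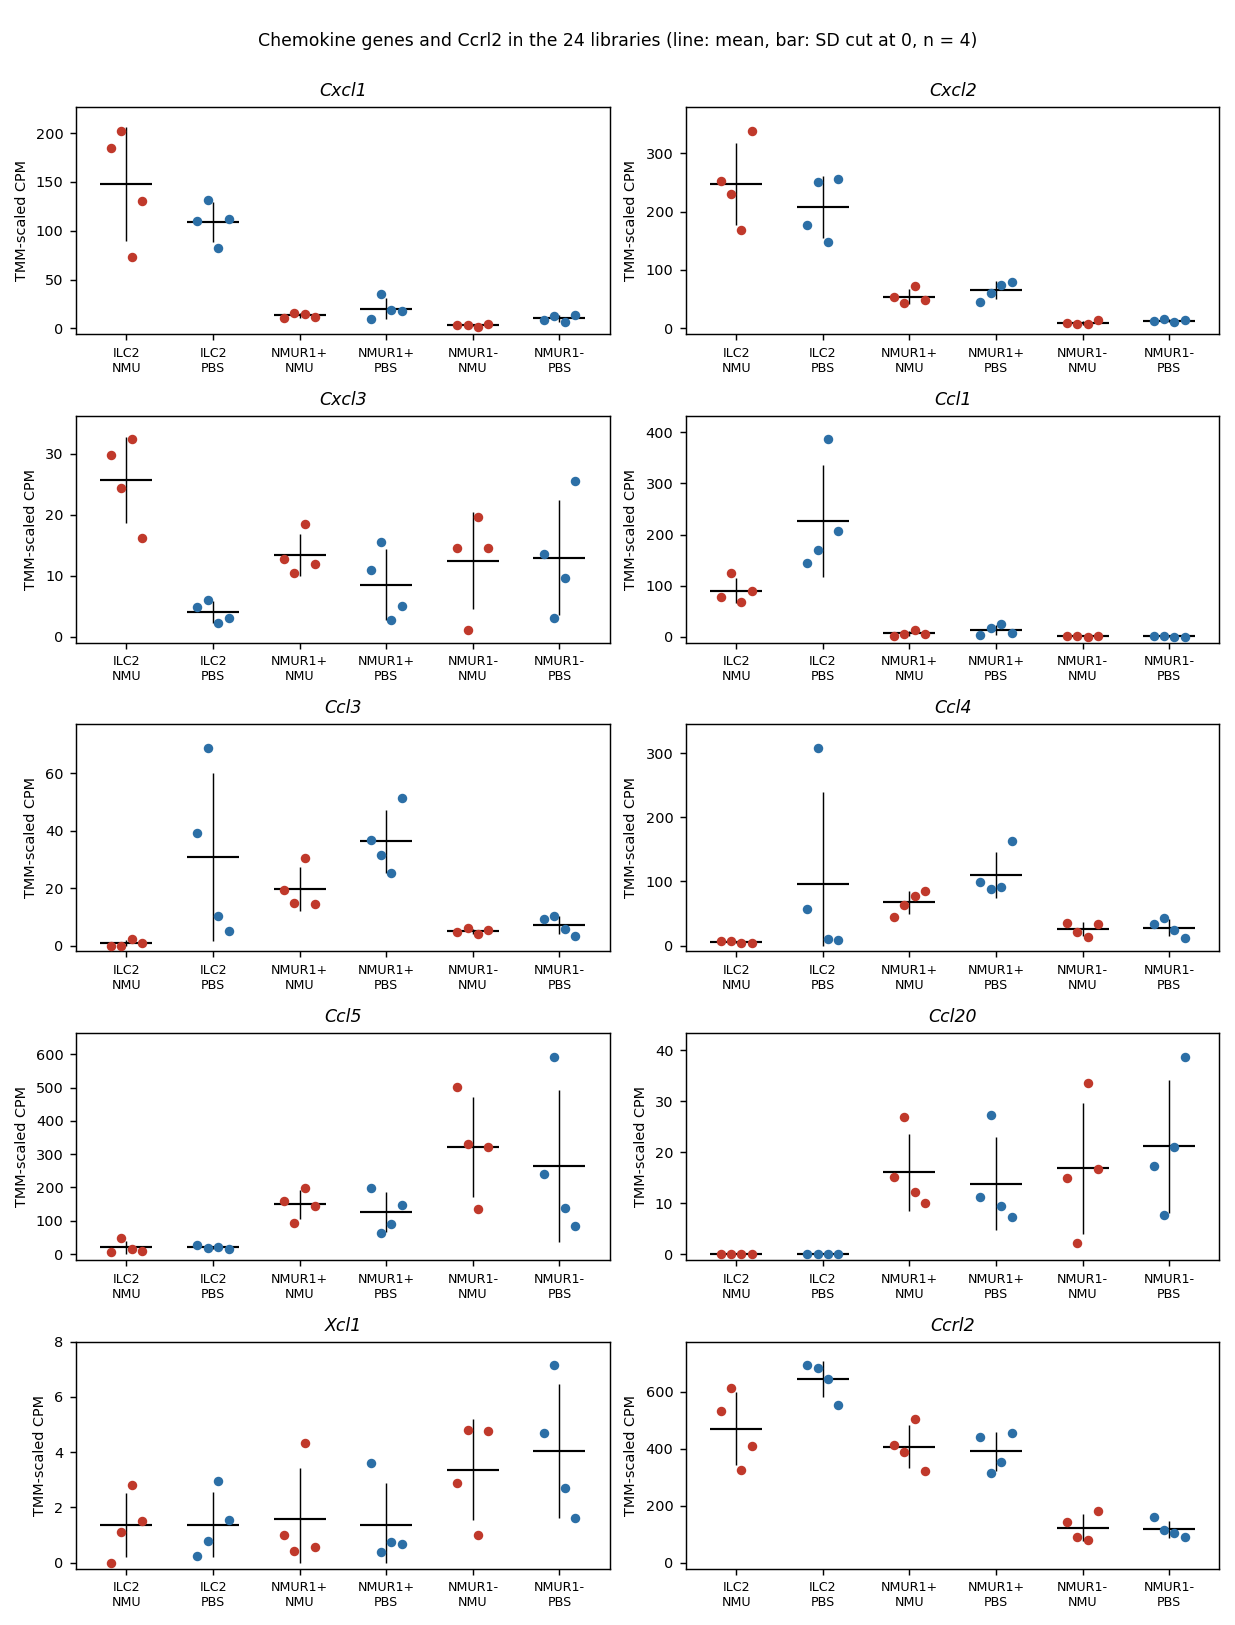
Level of each of the 10 genes in the 24 libraries, in TMM-scaled CPM on a linear axis, with ILC2, NMUR1+ and NMUR1- CD4 T cells from left to right, NMU in red and PBS in blue. Points are single mice, the horizontal line is the mean and the bar the SD over 4 mice. Cxcl1, Cxcl2 and Ccl1 are highest in ILC2, Ccl5 is highest in CD4 T cells, and Ccl20 sits at 0 in all 8 ILC2 libraries.

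The plot of the 10 genes by library gives the level of each gene in every mouse. Of the 10 genes, 4 were higher and 4 lower in ILC2 than in NMUR1+ CD4 T cells at an adjusted p under 0.05 in edgeR's quasi-likelihood test, with Benjamini-Hochberg adjustment over 13509 genes, of which 38.6% passed, 15.1% higher and 23.5% lower. Against NMUR1- CD4 T cells, 4 were higher and 2 lower in ILC2, where 40.5% of all genes passed, 16.4% higher and 24.1% lower. Between NMUR1+ and NMUR1- CD4 T cells 5 of the 10 were higher and none lower, while 8.31% of all genes passed, 5.49% higher and 2.83% lower. The 3 comparisons share libraries, and with backgrounds this large the counts for ILC2 are not read as a property of the list. The median log2 difference of the 10 genes was 1.62 between NMUR1+ and NMUR1- cells, where the median over all genes tested was -0.01. Because the list was chosen with earlier results of these data known, neither this median nor the count of 5 is read as a property of chemokine genes.

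**Figure D2:**
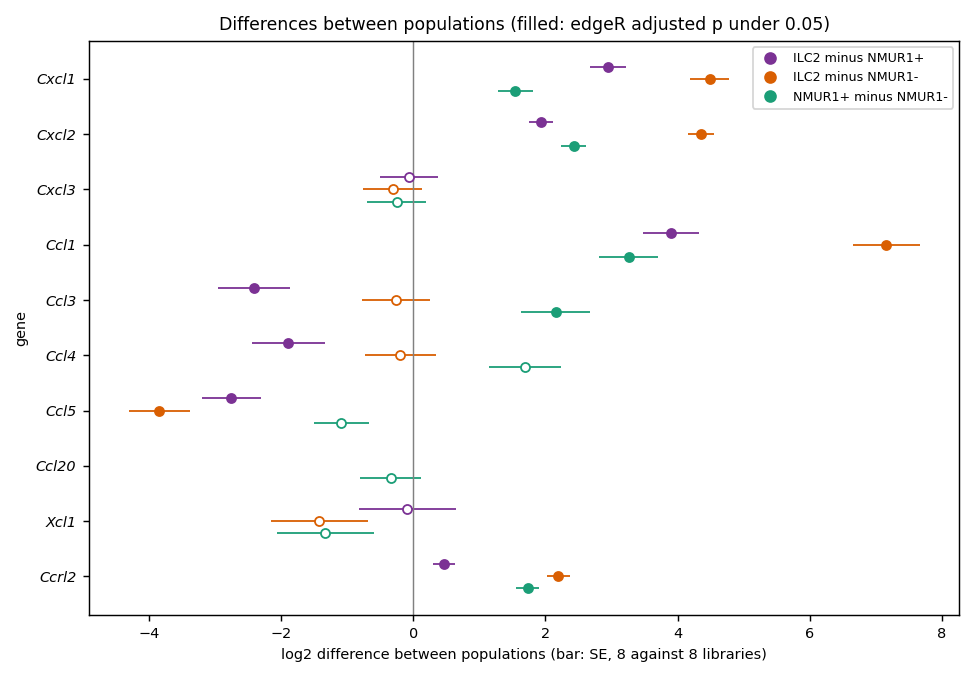
Log2 difference between populations for each gene, averaged over both treatments, with its SE (8 against 8 libraries), for ILC2 minus NMUR1+, ILC2 minus NMUR1- and NMUR1+ minus NMUR1- CD4 T cells. Filled points passed an adjusted p of 0.05 in edgeR. Ccl20 against ILC2 is left out because ILC2 held no count of it.

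Cxcl1, Cxcl2 and Cxcl3 encode the neutrophil attractants that in mice signal through CXCR2, and all 3 genes lie in a cluster on chromosome 5, at chr5:90891245-90893121, chr5:90903899-90905938 and chr5:90786101-90788093 (GRCm38.p6, plus strand). NF-kappaB is a known regulator of Cxcl1 and Cxcl2 in mice, so the promoters of the 3 genes were read from RefSeq (GRCm38.p6) and are shown here because the genes did not behave alike between populations and treatments. The 130 bases before each annotated start follow, 5′ to 3′, with the run GGGAATTTCC in capitals.
Cxcl1 (chr5:90891115-90891244): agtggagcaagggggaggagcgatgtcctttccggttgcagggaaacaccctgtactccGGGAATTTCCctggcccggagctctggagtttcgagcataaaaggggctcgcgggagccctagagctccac
Cxcl2 (chr5:90903769-90903898): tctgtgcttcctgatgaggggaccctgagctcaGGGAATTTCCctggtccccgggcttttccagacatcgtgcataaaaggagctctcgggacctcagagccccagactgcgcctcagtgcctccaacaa
Cxcl3 (chr5:90785971-90786100): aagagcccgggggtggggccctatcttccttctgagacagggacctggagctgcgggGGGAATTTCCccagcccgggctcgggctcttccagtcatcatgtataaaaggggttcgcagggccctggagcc
The same 10 letters stand 71, 97 and 73 bases before the starts of Cxcl1, Cxcl2 and Cxcl3, counted to the first base of the match. They were found with the NF-kappaB-type pattern of GGG, any 5 bases and CC on both strands of the 250 bases before the start, a pattern present in 51.7% of 22271 RefSeq windows of that length. The narrower pattern of GGGA, any base, TT, any base and CC, chosen after the first search, stood in 1.06% of windows. On the other strand the same site also matches the wider pattern, shifted by 1 base. Aligned in pairs, the windows shared 55.1% (Cxcl1 and Cxcl2), 63.4% (Cxcl1 and Cxcl3) and 53.5% (Cxcl2 and Cxcl3) of aligned positions. RefSeq promoters were found for 8 of the 10 genes. Ccl1 and Ccl20 also held the wider pattern, as did window 1 of Ccrl2, whose windows 2 and 3 did not. It was not in the windows of Ccl3 and Xcl1. A match is a string of letters and says nothing about binding in these cells.

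Cxcl1 and Cxcl2 were highest in ILC2, intermediate in NMUR1+ CD4 T cells and lowest in NMUR1- CD4 T cells. Cxcl1 in ILC2 had 185, 203, 73.4 and 131 CPM in mice 1 to 4 (NMU) and 110.1, 131, 82.4 and 112 CPM in mice 5 to 8 (PBS). In NMUR1+ CD4 T cells Cxcl1 had 10.6, 16.1, 14.7 and 11.9 CPM with NMU and 9.11, 35.3, 18.3 and 18.2 CPM with PBS. In NMUR1- CD4 T cells it had 3.43, 3.29, 1.38 and 4.38 CPM with NMU and 8.60, 12.8, 6.05 and 13.3 CPM with PBS. Every ILC2 library therefore exceeded every CD4 library, and in each of the 8 mice the NMUR1+ library exceeded the NMUR1- library. The mean level of Cxcl1 was 128 ± 45.4 CPM in ILC2, 16.8 ± 8.21 CPM in NMUR1+ cells and 6.66 ± 4.49 CPM in NMUR1- cells (SD, n = 8 each). The log2 difference was 2.95 (SE 0.27) between ILC2 and NMUR1+ cells and 4.49 (SE 0.29) between ILC2 and NMUR1- cells, with edgeR adjusted p of 1.13e-08 and 3.06e-11. Between NMUR1+ and NMUR1- cells it was 1.54 (SE 0.26, edgeR adjusted p = 0.000617), but in the PBS libraries alone it was 0.98 with an edgeR adjusted p of 0.207. Macrophage and monocyte markers summed to 1005 to 3325 CPM in NMUR1+ cells and 284 to 1008 CPM in NMUR1- cells, and ILC2 markers to 2531 to 4529 CPM in NMUR1+ cells and 981 to 1675 CPM in NMUR1- cells. The part of these cells in the higher Cxcl1, Cxcl2, Ccl1 and Ccrl2 of NMUR1+ cells was not tested.

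The estimated NMU effect on Cxcl1 was positive in ILC2 and negative in both CD4 populations, and it passed edgeR's test in none of them. In NMUR1- cells no NMU library reached the lowest PBS library: the NMU libraries averaged 3.12 ± 1.26 CPM and the PBS libraries 10.2 ± 3.48 CPM (SD, n = 4 each), a log2 difference of -1.72 (SE 0.38). Its unadjusted p of 0.00102 became an edgeR adjusted p of 0.577 over 12103 genes, while DESeq2 gave an adjusted p of 0.0137. The 7 fibroblast markers summed to 10.4 to 67.4 CPM with NMU and 50.8 to 219 CPM with PBS in NMUR1- cells. None of the 7 passed edgeR's test, 4 had an unadjusted p under 0.05, and their median log2 difference was -2.01; their part in Cxcl1 was not tested. In ILC2 the NMU libraries averaged 148 ± 58.2 CPM and the PBS libraries 109 ± 20.1 CPM, a log2 difference of 0.42 (SE 0.28, edgeR adjusted p = 0.629), with overlapping libraries. The NMU effect in ILC2 minus that in NMUR1- cells was 2.14 (SE 0.52, edgeR adjusted p = 0.0646), and DESeq2 gave an adjusted p of 0.00463 for it.

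Cxcl2 in ILC2 had 252, 231, 167.9 and 339 CPM with NMU and 177, 251.02, 148 and 256 CPM with PBS. NMUR1+ CD4 T cells had 53.5, 42.5, 72.0 and 49.2 CPM with NMU and 45.7, 60.9, 75.0 and 79.4 CPM with PBS. NMUR1- CD4 T cells had 9.42, 7.07, 6.96 and 13.7 CPM with NMU and 13.1, 15.4, 9.90 and 14.2 CPM with PBS. The 3 populations did not overlap in any library, which held for 10.2%, 14.4% and 3.29% of all genes in the comparisons of ILC2 with NMUR1+ cells, ILC2 with NMUR1- cells and NMUR1+ with NMUR1- cells. Cxcl2 averaged 228 ± 61.8, 59.8 ± 14.2 and 11.2 ± 3.31 CPM in ILC2, NMUR1+ and NMUR1- cells (SD, n = 8 each). The log2 differences were 1.93 (SE 0.18) for ILC2 minus NMUR1+, 4.36 (SE 0.20) for ILC2 minus NMUR1- and 2.43 (SE 0.19) for NMUR1+ minus NMUR1- cells, with edgeR adjusted p of 1.46e-08, 1.28e-13 and 5.77e-08. Under NMU the log2 differences of Cxcl2 were 0.23 in ILC2, -0.27 in NMUR1+ and -0.51 in NMUR1- cells, and none passed (edgeR adjusted p of 0.786, 1.00 and 0.693).

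With each population in an edgeR fit of its own, Cxcl3 in ILC2 was the only one of the 10 genes that passed between NMU and PBS. In ILC2 it had 29.8, 24.4, 32.3 and 16.2 CPM with NMU and 4.91, 6.09, 2.21 and 3.16 CPM with PBS. Every NMU library lay above every PBS library, with means of 25.7 ± 7.12 CPM for NMU and 4.10 ± 1.74 CPM for PBS (SD, n = 4 each). The log2 difference was 2.63 (SE 0.47, edgeR adjusted p = 0.0404), so 1 of the 9 genes tested rose, where 0.66% of the 11205 genes tested passed and 0.402% rose. The call was lost without any 1 of the 8 mice, at edgeR adjusted p of 0.0547 to 0.144. The log2 difference then stayed between 2.42 and 2.88. It was also lost with limma voom, which gave an adjusted p of 0.0990. Of 15 alternatives 5 kept the call, among them DESeq2. Without the ILC2 libraries of mice 5 and 6 the log2 difference was 3.22 with an edgeR adjusted p of 0.112, so none of the 10 genes passed. The 7 epithelial markers summed to 60.0, 38.4, 65.0 and 45.5 CPM with NMU and 28.2, 13.2, 21.4 and 18.6 CPM with PBS in the same libraries. Epcam made up most of these sums, at 43.0 ± 12.3 CPM in the NMU libraries and 11.5 ± 2.60 CPM in the PBS libraries (SD, n = 4 each). Krt18 had 3.89 ± 2.27 CPM in the NMU libraries and 1.79 ± 0.777 CPM in the PBS libraries, whereas Krt8 had 0.232 ± 0.465 CPM in the NMU libraries and 3.51 ± 3.22 CPM in the PBS libraries, and Muc2 was at 0 in all 4 NMU libraries. Of the 3 epithelial markers tested 1 passed edgeR's test, higher with NMU, and their median log2 difference was 1.10. The part of epithelial cells in the Cxcl3 values was not tested.

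In the CD4 T cells Cxcl3 overlapped between treatments. NMUR1+ cells had 12.7, 10.5, 18.4 and 11.9 CPM with NMU and 10.98, 15.5, 2.72 and 5.02 CPM with PBS. NMUR1- cells had 14.6, 1.205, 19.7 and 14.5 CPM with NMU and 13.7, 3.08, 9.68 and 25.6 CPM with PBS. The log2 differences were 0.64 (SE 0.50) in NMUR1+ cells and -0.07 (SE 0.80) in NMUR1- cells. The NMU effect in ILC2 was not shown to differ from that in either CD4 population, with edgeR adjusted p of 0.328 for NMUR1+ and 0.206 for NMUR1- cells. Unlike its neighbours in the genome, Cxcl3 did not pass between populations (log2 differences of -0.06, -0.31 and -0.25, edgeR adjusted p of 0.930, 0.615 and 0.839).

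Ccl1 (chr11:82176666-82179812), the ligand of CCR8, had the widest log2 gap between ILC2 and CD4 T cells among these 10 genes apart from Ccl20. ILC2 had 78.9, 123.95, 68.1 and 89.1 CPM with NMU and 145, 170.5, 386 and 206 CPM with PBS. NMUR1+ CD4 T cells had 1.28, 5.55, 14.1 and 5.61 CPM with NMU and 2.80, 17.5, 25.0 and 8.40 CPM with PBS. NMUR1- CD4 T cells had 0.725 to 1.85 CPM with NMU and 0.454 to 1.16 CPM with PBS. These low levels rest on 66 counts over the NMU libraries and 48 counts over the PBS libraries. The mean level of Ccl1 was 159 ± 103 CPM in ILC2, 10.03 ± 8.17 CPM in NMUR1+ cells and 1.02 ± 0.441 CPM in NMUR1- cells (SD, n = 8 each). The log2 differences were 3.90 (SE 0.42) for ILC2 minus NMUR1+, 7.16 (SE 0.50) for ILC2 minus NMUR1- and 3.26 (SE 0.44) for NMUR1+ minus NMUR1- cells, with edgeR adjusted p of 2.75e-07, 3.45e-10 and 7.42e-05. The NMUR1+ library exceeded the NMUR1- library in 8 of 8 mice.

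Within ILC2 every NMU library of Ccl1 lay below every PBS library, with means of 90.0 ± 24.2 CPM for NMU and 227 ± 109 CPM for PBS (SD, n = 4 each). The log2 difference was -1.36 (SE 0.31) with an edgeR adjusted p of 0.103, and DESeq2 gave an adjusted p of 0.00116. In NMUR1+ cells the NMU effect was -1.01 (SE 0.72) and in NMUR1- cells 0.64 (SE 0.48), with edgeR adjusted p of 1.00 and 0.821. Of the 9 genes tested in ILC2, Cxcl3 lay above and Ccl1, Ccl3 and Ccl4 lay below PBS without overlap, which 9.38% of all genes tested did in 1 direction or the other.

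Ccl3 (chr11:83647843-83649378), Ccl4 (chr11:83648624-83664683) and Ccl5 (chr11:83525778-83530518) encode inflammatory CC ligands that attract monocytes and T cells, and Ccl3 and Ccl5 bind CCR1. The RefSeq intervals of Ccl3 and Ccl4 overlap, and the counting was not stated to use strand, so reads in the shared stretch are uncertain between them. Ccl3 had 0, 0, 2.21 and 0.858 CPM in ILC2 of NMU-treated mice and 39.1, 68.8, 10.4 and 5.09 CPM in ILC2 of PBS-treated mice. That is 41 counts over the 4 NMU libraries and 1518 counts over the 4 PBS libraries. The highest NMU library lay below the lowest PBS library, and mice 5 and 6 held most of the PBS signal.

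The log2 difference of Ccl3 in ILC2 was -5.26 (SE 1.31) with an edgeR adjusted p of 0.113. DESeq2 gave an adjusted p of 0.000149, and a single edgeR fit of all 24 libraries gave 0.00128. Without the ILC2 libraries of mice 5 and 6, an alternative chosen after seeing the data, the log2 difference was -3.32 with an edgeR adjusted p of 0.694. The NMU effect in ILC2 minus that in NMUR1- cells was -4.72 (SE 1.09, edgeR adjusted p = 0.0492), which made Ccl3 the 1 gene of the 9 tested that differed in its NMU effect, where 0.533% of 13508 genes passed, 0.155% higher and 0.378% lower. That call was lost without each mouse other than mouse 3, with limma voom and with size factors by relative log expression. It was also lost with no filter on low counts and with mouse as a block (edgeR adjusted p = 0.0751). The difference of NMU effects was not fitted without the ILC2 libraries of mice 5 and 6 together. Against NMUR1+ cells the difference of NMU effects was -4.36 (SE 1.08, edgeR adjusted p = 0.0588), and none of the 9 genes passed, where 0.725% of all genes did, 0.222% higher and 0.503% lower.

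Ccl4 in ILC2 had 7.42, 6.75, 4.19 and 4.22 CPM with NMU and 57.5, 308, 9.78 and 8.18 CPM with PBS. The PBS mean of 95.9 ± 143.2 CPM (SD, n = 4) rested on mouse 6, and the NMU mean was 5.64 ± 1.69 CPM. The log2 difference was -4.10 (SE 1.10, edgeR adjusted p = 0.140), and without the ILC2 libraries of mice 5 and 6 it was -0.70 (edgeR adjusted p = 0.932). DESeq2 gave an adjusted p of 0.00870 and the edgeR fit of all 24 libraries 0.00743.

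Marker sums of other cell types in the ILC2 libraries were set beside Ccl3 and Ccl4. The 10 macrophage and monocyte markers summed to 42.6, 165, 352 and 42.1 CPM with NMU and 986, 716, 79.1 and 370 CPM with PBS. The 7 fibroblast markers summed to 0, 1.35, 28.0 and 12.8 CPM with NMU, where Lum and Mfap5 were at 0, and to 168.5, 379, 11.1 and 142.5 CPM with PBS. The 8 B and plasma cell markers summed to 929 to 1753 CPM with NMU and 2126 to 17076 CPM with PBS. Mouse 6, highest for Ccl3 and Ccl4, had the lowest B and plasma cell sum and the highest fibroblast sum of the PBS libraries. Neutrophil markers summed to 0 to 3.49 CPM with NMU and to 1.38 to 11.9 CPM with PBS in mice 5 to 7, with Ly6g and Elane at 0 in both groups. In mouse 8 (PBS), which had the lowest Ccl3 and Ccl4 of the PBS libraries, they summed to 355 CPM. None of the 10 macrophage markers passed between NMU and PBS in ILC2 (median log2 difference -1.79), and 3 had an unadjusted p under 0.05 in edgeR. Of 5 fibroblast markers tested none passed and 3 had an unadjusted p under 0.05 in edgeR (median log2 difference -4.49). For B and plasma cell markers none of 6 tested passed and 4 had an unadjusted p under 0.05 in edgeR (median log2 difference -2.92). The part of these cell types in the Ccl3 and Ccl4 values was not tested.

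**Figure D3:**
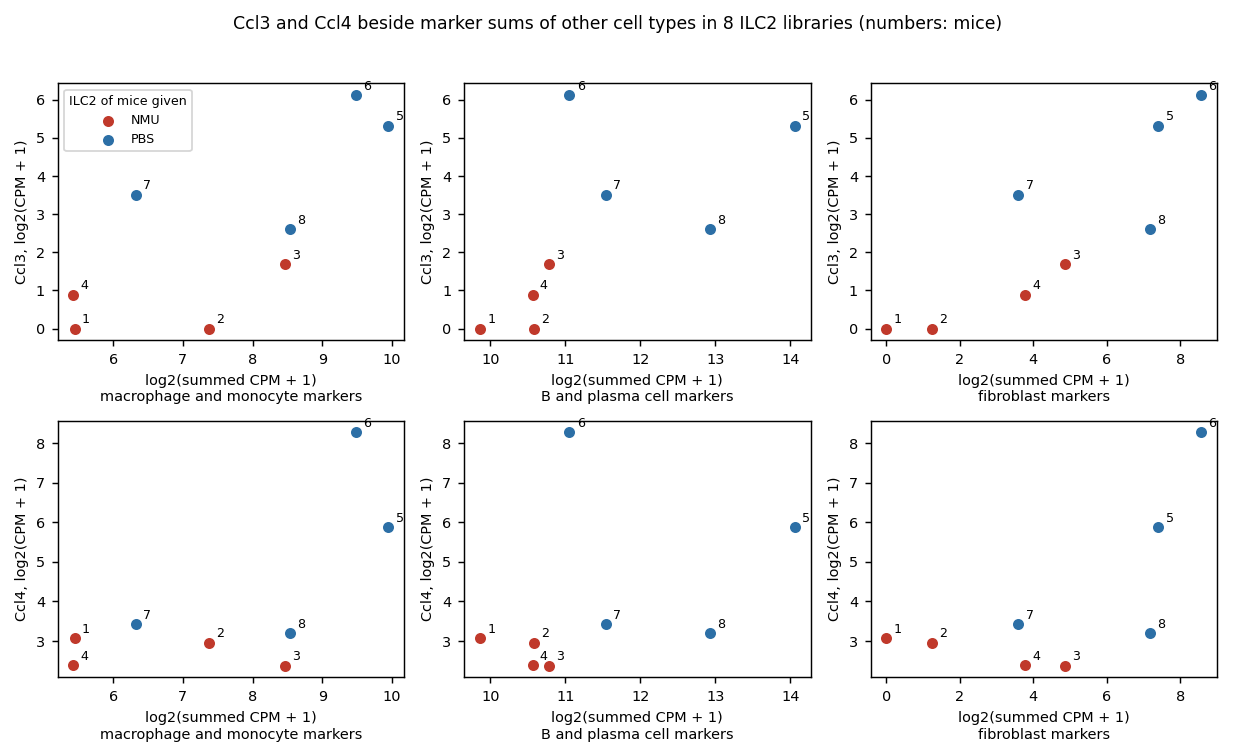
Ccl3 (upper row) and Ccl4 (lower row) against the summed level of macrophage and monocyte, B and plasma cell, and fibroblast markers in the 8 ILC2 libraries, all as log2(CPM + 1), with NMU in red and PBS in blue and the mouse number beside each point. Mice 5 and 6 are highest for both genes and for the macrophage sum; mouse 7, given PBS, has a macrophage sum of 79.1 CPM and a Ccl3 level of 10.4 CPM.

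In NMUR1+ CD4 T cells Ccl3 had 19.2, 14.7, 30.5 and 14.4 CPM with NMU and 36.9, 31.5, 25.4 and 51.3 CPM with PBS. Ccl4 had 44.2, 62.5, 76.5 and 85.1 CPM with NMU and 98.2, 88.2, 90.9 and 163 CPM with PBS. Ccl4 did not overlap between treatments, as 1.87% of the 12061 genes tested did not, and Ccl3 overlapped through mouse 3. The log2 differences were -0.88 (SE 0.31) for Ccl3 and -0.71 (SE 0.25) for Ccl4, at unadjusted p of 0.0155 and 0.0149 and an edgeR adjusted p of 1.00 for both. None of the 9 genes tested passed in NMUR1+ cells, where edgeR called 0 of all genes (0%; 307 at an unadjusted p under 0.05), DESeq2 called 2 and limma voom 0.

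In NMUR1- CD4 T cells Ccl3 had 4.55, 6.02, 4.13 and 5.31 CPM with NMU and 9.17, 10.3, 5.90 and 3.40 CPM with PBS. Ccl4 had 34.5, 20.4, 12.8 and 33.7 CPM with NMU and 34.0, 42.1, 24.1 and 11.6 CPM with PBS. Both overlapped between treatments. None of the 10 genes passed in NMUR1- cells, where edgeR again called 0 of all genes (0%; 877 at an unadjusted p under 0.05), DESeq2 called 21 and limma voom 0; 4.48% of genes did not overlap.

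Between populations Ccl3 was higher in NMUR1+ than in NMUR1- CD4 T cells, at 28.0 ± 12.4 CPM against 6.10 ± 2.43 CPM (SD, n = 8 each), with no overlap. The log2 difference was 2.16 (SE 0.53, edgeR adjusted p = 0.0113). Ccl4 averaged 88.6 ± 34.8 CPM in NMUR1+ cells and 26.7 ± 11.1 CPM in NMUR1- cells, also with no overlap, and its log2 difference of 1.69 (SE 0.54) missed the threshold at an edgeR adjusted p of 0.0596. Ccl4 passed in 6 of 16 alternatives, among them mouse as a block (edgeR adjusted p = 0.0366). Macrophage and monocyte markers summed to 1005 to 3325 CPM in NMUR1+ and 284 to 1008 CPM in NMUR1- cells, all 10 detected in every CD4 library, and their part in these 2 genes was not tested. Without the NMUR1+ libraries of mice 1, 4, 5 and 7, chosen after seeing the data, Ccl3 had a log2 difference of 2.36 and an edgeR adjusted p of 0.0705, which left 4 of the 10 genes higher.

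ILC2 differed from NMUR1+ cells by -2.41 (SE 0.54, edgeR adjusted p = 0.00114) for Ccl3 and -1.89 (SE 0.55, edgeR adjusted p = 0.0101) for Ccl4 on the log2 scale. Both calls were lost in the PBS libraries alone, where the values were -0.20 and -0.17 at edgeR adjusted p of 0.876 and 0.943. Against NMUR1- cells the averaged differences of -0.26 and -0.20 did not pass. In the PBS libraries alone they were 2.12 and 1.80, which did not pass either (edgeR adjusted p of 0.0568 and 0.301). Without mouse 6 the averaged Ccl4 difference from NMUR1- cells was -1.03, with an edgeR adjusted p of 0.0402.

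Ccl5, made by memory and cytotoxic T cells and natural killer cells, ran the other way to Cxcl1, Cxcl2 and Ccl1. ILC2 had 7.71, 48.9, 14.8 and 10.2 CPM with NMU and 27.4, 19.0, 19.9 and 14.8 CPM with PBS. NMUR1+ CD4 T cells had 159, 93.3, 199.9 and 145.5 CPM with NMU and 199.0, 64.5, 90.0 and 148 CPM with PBS. NMUR1- CD4 T cells had 502, 329, 136 and 321 CPM with NMU and 241, 593, 139 and 83.4 CPM with PBS. All ILC2 libraries lay below all CD4 libraries, while the NMUR1+ and NMUR1- libraries overlapped. The mean level of Ccl5 was 20.3 ± 13.0 CPM in ILC2, 137 ± 50.5 CPM in NMUR1+ cells and 293 ± 182 CPM in NMUR1- cells (SD, n = 8 each). The log2 differences were -2.75 (SE 0.44) for ILC2 minus NMUR1+ and -3.84 (SE 0.46) for ILC2 minus NMUR1- cells, with edgeR adjusted p of 5.59e-05 and 1.43e-06. NMUR1+ minus NMUR1- cells gave -1.09 (SE 0.42, edgeR adjusted p = 0.120).

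Natural killer and CD8 T cell markers summed to 132 to 1557 CPM in ILC2, 304 to 720 CPM in NMUR1+ and 315 to 999.7 CPM in NMUR1- cells. Eomes was at 0 in every ILC2 library and Ncr1 in every NMUR1+ library. In ILC2, Ncr1 averaged 12.98 ± 9.75 CPM in the NMU libraries and 7.07 ± 8.85 CPM in the PBS libraries (SD, n = 4 each). Gzma averaged 365 ± 557 CPM in the NMU libraries and 29.0 ± 49.1 CPM in the PBS libraries of ILC2. Nkg7 and Prf1 went the other way. Nkg7 averaged 203 ± 86.4 CPM in the NMU libraries and 277 ± 63.6 CPM in the PBS libraries of ILC2. Prf1 averaged 24.8 ± 17.9 CPM and 34.9 ± 8.39 CPM in the same order. The highest ILC2 marker sum, 1557 CPM, was that of mouse 3 (NMU). Of the 4 such markers tested between NMU and PBS in ILC2, 0 had an unadjusted p under 0.05 in edgeR. In NMUR1- cells the mean of Gzmk was 61.2 CPM in the NMU libraries and 53.2 CPM in the PBS libraries. The part of such cells in Ccl5 was not tested. Under NMU, Ccl5 had log2 differences of -0.01 (SE 0.56) in ILC2, 0.25 (SE 0.34) in NMUR1+ cells and 0.28 (SE 0.65) in NMUR1- cells, none of which passed.

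Ccl20 (chr1:83116766-83119167), the only known chemokine ligand of CCR6, was absent from the ILC2 counts. All 8 ILC2 libraries held 0 counts, which allows a level of up to 0.0317 CPM (3 counts over the 8 libraries, counting error only). NMUR1+ CD4 T cells had 15.1, 26.9, 12.2 and 10.03 CPM with NMU and 11.2, 27.4, 9.48 and 7.24 CPM with PBS. NMUR1- CD4 T cells had 14.8, 2.25, 33.6 and 16.7 CPM with NMU and 17.2, 7.71, 20.9 and 38.7 CPM with PBS. Ccl20 was at least 471-fold lower in ILC2 than in NMUR1+ cells and at least 599-fold lower than in NMUR1- cells, with edgeR adjusted p of 5.15e-08 and 2.54e-08. The CD4 populations overlapped, at 14.9 ± 7.85 CPM in NMUR1+ cells and 19.0 ± 12.2 CPM in NMUR1- cells (SD, n = 8 each), and did not pass against each other (log2 difference -0.34, SE 0.46, edgeR adjusted p = 0.770). The NMU effects were 0.21 (SE 0.46) in NMUR1+ cells and -0.34 (SE 0.73) in NMUR1- cells. In mouse 2 both Ccl20 and Cxcl3 were lowest among the NMU-treated NMUR1- libraries.

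Xcl1 (chr1:164931644-164935522), the ligand of XCR1 on cross-presenting dendritic cells, was low in every population. It ranged between 0 and 2.95 CPM in ILC2, between 0.380 and 4.35 CPM in NMUR1+ cells and between 1.02 and 7.15 CPM in NMUR1- cells, with 682 counts over all 24 libraries. All 3 populations overlapped. The log2 differences were -0.09 (SE 0.73) for ILC2 minus NMUR1+, -1.42 (SE 0.73) for ILC2 minus NMUR1- and -1.33 (SE 0.73) for NMUR1+ minus NMUR1- cells, with edgeR adjusted p of 0.941, 0.130 and 0.311; limma voom gave 0.0370 for ILC2 minus NMUR1- cells. In NMUR1+ cells the gene did not pass the filter on low counts for the NMU comparison.

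Ccrl2 (chr9:111054834-111057518) encodes an atypical receptor that binds the attractant chemerin without known signalling through G proteins. ILC2 had 531, 613, 326 and 410.2 CPM with NMU and 692.6, 682, 644 and 553 CPM with PBS. NMUR1+ CD4 T cells had 413, 390.0, 503 and 320.0 CPM with NMU and 441, 314, 355 and 456 CPM with PBS. NMUR1- CD4 T cells had 142, 88.7, 80.1 and 183 CPM with NMU and 160.1, 115, 103 and 90.5 CPM with PBS. Every NMUR1- library lay below every library of the other populations, while ILC2 and NMUR1+ libraries overlapped.

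The mean level of Ccrl2 was 557 ± 131 CPM in ILC2, 399 ± 67.1 CPM in NMUR1+ cells and 120 ± 37.4 CPM in NMUR1- cells (SD, n = 8 each). The log2 differences from NMUR1- cells were 2.19 (SE 0.17) for ILC2 and 1.73 (SE 0.17) for NMUR1+ cells, with edgeR adjusted p of 6.45e-10 and 1.61e-06. ILC2 minus NMUR1+ cells gave 0.46 (SE 0.17, edgeR adjusted p = 0.0303). That call was lost with mouse as a block (0.0526), without mouse 1, 2, 6 or 7 (0.0593 to 0.0713) and without the NMUR1+ libraries of mice 1, 4, 5 and 7 (0.171), all edgeR adjusted p. With NMU in ILC2 the log2 difference was -0.47 (SE 0.18, edgeR adjusted p = 0.317), and in NMUR1+ and NMUR1- cells 0.05 (SE 0.17) and 0.07 (SE 0.27).

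Of 11 listed receptor genes 7 were tested in each comparison of ILC2 with CD4 T cells. In both comparisons 2 were higher and 5 lower in ILC2. Of all genes, 15.1% were higher and 23.5% lower against NMUR1+ cells, and 16.4% higher and 24.1% lower against NMUR1- cells. Ccr8, the receptor of Ccl1, averaged 2350 ± 355 CPM in ILC2, 493 ± 204 CPM in NMUR1+ cells and 218 ± 108 CPM in NMUR1- cells, so ligand and receptor genes stood in the same order. Xcr1 averaged 44.1 ± 11.2, 14.1 ± 4.01 and 16.9 ± 5.88 CPM in the same order. Ccr6, the receptor of Ccl20, averaged 0.154 ± 0.436 CPM in ILC2 against 85.6 ± 29.7 CPM in NMUR1+ cells and 85.9 ± 17.5 CPM in NMUR1- cells. Ccr1, Ccr3 and Cmklr1 were among those lower in ILC2. Ccr1 averaged 21.4 ± 12.7 CPM in ILC2, 521 ± 117 CPM in NMUR1+ cells and 154 ± 98.6 CPM in NMUR1- cells (SD, n = 8 each). Macrophage and monocyte marker sums are given with Ccl3 and Ccl4, and the part of those cells in the receptor values was not tested. Between NMUR1+ and NMUR1- cells 1 of 7 passed, Ccr8, with a log2 difference of 1.18 (SE 0.30, edgeR adjusted p = 0.0159). Between NMU and PBS none of the 5 receptor genes tested in ILC2, 7 in NMUR1+ and 6 in NMUR1- cells passed.

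A list of 26 other chemokine ligand genes gives the rest of the family. None passed between NMU and PBS, of 14 tested in ILC2, 18 in NMUR1+ and 16 in NMUR1- cells, and their median log2 differences were -1.15, -0.01 and -0.22. In ILC2 against NMUR1+ cells 9 of 19 were lower and 1 higher, where 23.5% of all genes were lower and 15.1% higher. The 3 lower genes with the smallest p were Cxcl16, at 28.5 ± 14.6 CPM in ILC2 against 140.6 ± 57.3 CPM in NMUR1+ cells, Ccl6, at 14.3 ± 12.7 against 103 ± 51.2 CPM, and Ccl9, at 1.77 ± 1.90 against 34.9 ± 16.0 CPM. The higher gene was Cx3cl1, the ligand of CX3CR1, at 7.08 ± 6.21 against 0.934 ± 1.33 CPM. In ILC2 against NMUR1- cells 4 of 19 were lower, Cxcl5, Cxcl13, Ccl9 and Ccl2, and 2 were higher, Cx3cl1 and Cxcl10, an interferon-induced ligand of CXCR3, at 184 ± 91.6 CPM in ILC2 against 65.4 ± 11.8 CPM in NMUR1- cells (SD, n = 8 each), where 24.1% of all genes were lower and 16.4% higher. Between NMUR1+ and NMUR1- cells 5 of 19 were higher and none lower, where 5.49% of all genes were higher and 2.83% lower, the first 3 by p being Cxcl16 (log2 difference 2.11, SE 0.30), Ccl6 (2.67, SE 0.47) and Cxcl10 (1.05, SE 0.21), with edgeR adjusted p of 0.000109, 0.000906 and 0.00192, followed by Ccl9 and Cxcl9. Cxcl16, Ccl6 and Ccl9 are also made by macrophages, whose marker sums in both CD4 populations are given with Ccl4, and the part of those cells was not tested.

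The genes whose log2 CPM followed each member most closely over the 24 libraries were named from 12266 genes by Pearson's r, as a description, since the libraries share mice and fall into 3 populations. For Cxcl1 they were Gadd45b (0.951), Nfkbid (0.950) and Atf3 (0.949). For Cxcl2 they were Il5 (0.976), Npnt (0.971) and Gata3 (0.969), and for Ccl1 Il4 (0.975), Ptgir (0.968) and Il13 (0.964). Ccl5 ran with Gzmk (0.938), Fasl (0.935) and Tnfsf8 (0.909), Ccl20 with Sgip1 (0.977), Vax2 (0.969) and Ccr6 (0.967), and Ccrl2 with Rab20 (0.955), Adssl1 (0.952) and Il1rl1 (0.941). Ccl3 ran with Hfe (0.906), Mmp2 (0.884) and Dcn (0.874), of which Dcn is on the fibroblast marker list, and Ccl4 with Ccl12 (0.871), Slc7a7 (0.867) and Abca9 (0.863). Cxcl3 had the loosest likeness, with Ly6g5b (0.705), Atxn1 (0.683) and Prr29 (0.663).

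Pairs of the 10 genes were also compared across the 8 mice of each population, 126 relations in all, and none passed Benjamini-Hochberg adjustment of Pearson's permutation p. The smallest adjusted value was shared by 2 pairs. One was Cxcl3 and Ccl1 in ILC2, for which no pooled r is given because NMU and PBS mice did not overlap in either gene. In NMUR1- cells Cxcl3 and Ccl20 gave r = 0.955 (permutation p = 0.00109, adjusted 0.0688) and Spearman's rho = 0.762 (permutation p = 0.0368, adjusted 0.257) over 8 mice. Without the 2 mice farthest from the median of Cxcl3, r was 0.726.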

How the data were processed

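RNA from 24 sorted samples had been extracted with the RNeasy Micro kit and made into libraries using the low-input NEBNext Single Cell kit, per the labels' protocols; the kit keeps no strand and no molecular identifiers. Per the submitters' processing notes, STAR 2.5.3 and mm10 were used. How reads were counted, with which annotation and with what treatment of reads that match several genes, is not given in the sources used here. A table of raw counts per gene ID was deposited by the authors, and each column was tied to a sample by its header. Of the 27179 IDs, 25275 (93.0%) matched a symbol in RefSeq; the 1904 others held 0.986% of the counts and were kept in library sizes and tests. Genes were placed by RefSeq on GRCm38.p6, the build named mm10, and transcript lengths came from the GENCODE annotation of that build.

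The 10 genes, the lists of other ligands, receptors and markers, and the rules for naming genes were chosen with earlier results of these data known. Named from those lists were the 10 members in every comparison, at most 3 other ligands or receptors for each comparison and direction by smallest p, with further genes named where a count was 5 or fewer (1 listed receptor is not reported here), and the 3 most alike genes for each member whose mean reached 5 CPM in some group. CPM was computed on library sizes multiplied by TMM factors of 0.719 to 1.16. Tests were edgeR 4.0.16 quasi-likelihood tests (robust, two-sided) in R 4.3.3 on genes that passed filterByExpr with a minimum count of 10, adjusted by Benjamini-Hochberg over all genes tested, threshold 0.05. The NMU effect was fitted in each population apart (4 against 4 mice), and populations and the differences of NMU effects in a fit of all 24 libraries with 6 group means. The SE is the log2 difference divided by the square root of F. The fitting code was run on simulated counts with the same spread for every gene and no mouse effect. Those counts held no outlying libraries, so the run does not bear on results that depend on such libraries. Alternatives were DESeq2 1.42.0, limma voom 3.58.1, size factors by relative log expression (RLE), no filter on low counts, 261 immunoglobulin genes left out, all 24 libraries in a fit, PBS libraries only, mouse as a block, each mouse left out, and, chosen after seeing the data, 2 sets of libraries left out.

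Mouse numbers pair the populations, since a number names an animal: deviations of same-numbered libraries correlated at -0.0112 to 0.432, above 0.1 in 12 of 24 pairs. No pair of replicates agreed within sampling noise (lowest chi-square per degree of freedom 15.5). The labels name no batch. Intervals and limits cover counting error only, since the counts are reads and not molecules.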

Additional observations from a re-analysis of the deposited data

Results flagged for a closer look

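In the ILC2 libraries of PBS-treated mice, Ccl4 reached 307.9 CPM in mouse 6, far from the other 3 libraries at 8.18 to 57.5 CPM. In the NMUR1+ libraries of PBS-treated mice, Ccl4 reached 163.2 CPM in mouse 8, where the other 3 lay between 88.2 and 98.2 CPM. Xcl1 reached 4.346 CPM in mouse 3 among the NMUR1+ libraries of NMU-treated mice and 3.621 CPM in mouse 5 among those of PBS-treated mice, with the others under 1 CPM. In all, 4 of 58 gene and group combinations held a library this far from the rest, and chance alone marks about 1 in 20.

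The NMU effect on Ccl3 in ILC2 minus that in NMUR1- CD4 T cells was -4.719 on the log2 scale (edgeR adjusted p = 0.0492). Ccl3 was lower with NMU in both populations, without overlap of the treatments in ILC2 and with overlap in NMUR1- cells.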

How the results depend on the processing

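Of 1142 values of the 10 genes under an alternative, 1040 kept their direction and side of the threshold. Between NMU and PBS in ILC2, 74 genes passed, against 454 with DESeq2, 1053 with all 24 libraries in a fit, 12 to 63 without 1 mouse and 2 without the ILC2 libraries of mice 5 and 6 (chosen after seeing the data); 0 passed in NMUR1+ cells, against 2 with DESeq2 and 0 to 1 without 1 mouse, and 0 in NMUR1- cells, against 21 with DESeq2. With PBS libraries only, 2601 genes passed for ILC2 against NMUR1+ cells (5218 in all libraries), 3545 for ILC2 against NMUR1- cells (5471) and 524 for NMUR1+ against NMUR1- cells (1123); the last count was 609 to 1035 without 1 mouse and 393 without the NMUR1+ libraries of mice 1, 4, 5 and 7 (chosen after seeing the data). For the NMU effect in ILC2 minus that in NMUR1+ cells 98 genes passed, against 512 with DESeq2, 21 with limma voom, 54 with no filter, 30 to 106 without 1 mouse and 15 without those 4 NMUR1+ libraries; for ILC2 minus NMUR1- cells 72 passed, against 386 with DESeq2, 25 with limma voom and 20 to 83 without 1 mouse. The causes of these shifts were not tested. Fits with libraries left out also had fewer samples.

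With mouse as a replicate block, 46 genes passed for the NMU effect in ILC2 minus that in NMUR1+ cells and 36 for ILC2 minus NMUR1- cells. The block gave 5116 genes for ILC2 against NMUR1+ cells, 5485 for ILC2 against NMUR1- cells and 1140 for NMUR1+ against NMUR1- cells. It changed 3 calls of the 10 genes, given with Ccrl2, Ccl3 and Ccl4 in the text, and no other.

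No value that passed its test changed sign; 22 that did not pass changed sign under at least 1 alternative. Without 1 mouse, the log2 difference between NMU and PBS ranged over -0.91 to 0.26 for Ccl5 and -0.66 to 0.64 for Xcl1 in ILC2, and over -0.16 to 0.79 for Ccl20 and -0.061 to 0.14 for Ccrl2 in NMUR1+ cells. In NMUR1- cells it ranged over -0.39 to 0.51 for Cxcl3, -0.41 to 0.13 for Ccl4, -0.021 to 1.07 for Ccl5, -0.92 to 0.14 for Ccl20, -0.53 to 0.18 for Xcl1 and -0.17 to 0.24 for Ccrl2. Between populations without 1 mouse, ILC2 minus NMUR1+ cells ranged over -0.11 to 0.071 for Cxcl3 and -0.49 to 0.68 for Xcl1, ILC2 minus NMUR1- cells over -0.61 to 0.020 for Cxcl3, and NMUR1+ minus NMUR1- cells over -0.68 to 0.12 for Cxcl3 and -0.80 to 0.00035 for Ccl20. The NMU effect in ILC2 minus that in NMUR1+ cells ranged over -0.65 to 0.42 for Ccl1, -1.32 to 0.034 for Ccl5 and -1.79 to 0.60 for Xcl1, and that minus NMUR1- cells over -1.16 to 0.28 for Ccl5 and -0.69 to 1.07 for Xcl1. Ccl5 between NMU and PBS in ILC2 was 0.0022 with all 24 libraries in a fit and 0.20 without the ILC2 libraries of mice 5 and 6. Xcl1 for ILC2 minus NMUR1+ cells was 0.072 with the replicate block, 0.080 with PBS libraries only and 0.30 without the 4 NMUR1+ libraries. With PBS libraries only, ILC2 minus NMUR1- cells was 2.12 for Ccl3 and 1.80 for Ccl4 (edgeR adjusted p of 0.0568 and 0.301). Cxcl3 for NMUR1+ minus NMUR1- cells was 0.027 with limma voom, and Xcl1 for the NMU effect in ILC2 minus that in NMUR1- cells was -0.29 with limma voom and -0.52 with the replicate block. Low counts limit Xcl1, Ccl3 in the ILC2 of NMU-treated mice, and Ccl1 in NMUR1- cells.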
